A study of Mus musculus with 7 samples.

Results

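The dermis of the Koa ear was compared with the epidermis of the Koa ear, 1 sequencing library against 1 library. All genes with at least 1 FPKM (sequenced fragments relative to transcript length and library size) in either library were taken, which gave 13957 of the 22552 genes in the table. The difference was the dermal minus the epidermal value on the log2(FPKM + 1) scale, and a gene was called higher in a layer when that difference was at least 1. Just inside the limit, 142 genes lay between 1 and 1.1 FPKM in their higher library, and 164 genes lay just outside it between 0.9 and 1.

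Both Koa libraries came from cells purified by flow sorting at postnatal day 50 from mice of strain CD1/C3H with the genotype Wt/Koa, that is 1 wild-type and 1 Koa allele. Koa is a dominant mouse allele, an inversion with hairy ears as its best known trait. The epidermis and dermis of wild-type ear and of wild-type back, all Wt/Wt, of the same strain label and age, are set beside it where stated. The labels do not give the surface markers of the sort, the sex, or how many mice a library holds, and with 1 library per group there is neither a replicate nor a test for any difference.

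Skin has an outer epithelium, the epidermis, whose keratinocytes divide in a basal layer, attach to a basement membrane through hemidesmosomes and to each other through desmosomes, and change their keratins as they move outward. Beneath lies the dermis, where fibroblasts lay down collagen, elastic fibres and proteoglycans, and where vessels, nerves and immune cells are found. Hair follicles grow from the epithelium into the dermis, and signals pass between the layers in both directions, with Wnt proteins, FGFs and BMPs among the best studied. The external ear also has a plate of elastic cartilage.

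The 2 libraries were equally deep. Low FPKM values of genes with 1 annotated transcript lay on steps of whole fragments, 76.6% of 560 such values in dermis and 77.5% of 601 in epidermis within 0.1 of a whole fragment, which gave about 35.25 and 35.05 M fragments (M, mega). The 4 wild-type libraries came to between 31.45 and 40.35 M. A transcript of 2000 bases at 1 FPKM then stands for 63.3 fragments in the dermal and 63.1 in the epidermal library. At this depth Lum at 0.573 FPKM in epidermis has an exact 95% Poisson interval of 0.417 to 0.764 FPKM, an interval that covers counting error and not differences between mice.

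Of the 13957 genes, 3 were left out because their dermal values are failed estimates, leaving 13954. The genes of the main fibrillar collagens, Col1a1, Col1a2 and Col3a1, have a 0 in the Koa ear dermis column, while Col1a1 stands at 4362 FPKM in wild-type ear dermis. Nothing is said here of their layer difference. In Koa ear epidermis they are listed at 4.63 FPKM for Col1a1, 7.53 FPKM for Col1a2 and 6.43 FPKM for Col3a1.

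In Koa ear, 2842 of 13954 genes (20.4%) were higher in dermis and 1778 (12.7%) were higher in epidermis. The median difference was -0.11. Dermal genes were 61.5% of these calls, 71.0% with both libraries scaled to equal totals (3195 and 1303 genes), and 49.9% after subtracting from dermis the basal keratinocyte fraction described below (2756 and 2767 genes), an alternative for these counts chosen after the data were seen. Of the 7950 genes at 5 FPKM or more in both layers, short RNAs left out, 4441 (55.9%) lay within 0.5 of each other on the log2(FPKM + 1) scale. In bulk libraries such as these, fewer cells of a type and less RNA per cell cannot be told apart.

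The contrast was lopsided in size. Towards dermis the differences reached 9.09, and 398 genes, short RNAs left out, were higher there by 4 or more. Towards epidermis the widest difference was -3.69, and 0 genes reached 4. Among the 4213 genes at 20 FPKM or more in epidermis, 0 fell below 5% of their epidermal level in the dermal library and 40 fell below 10%. Among the 3957 genes at 20 FPKM or more in dermis, 240 stood below 1% of their dermal level in the epidermal library.

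**Figure D1:**
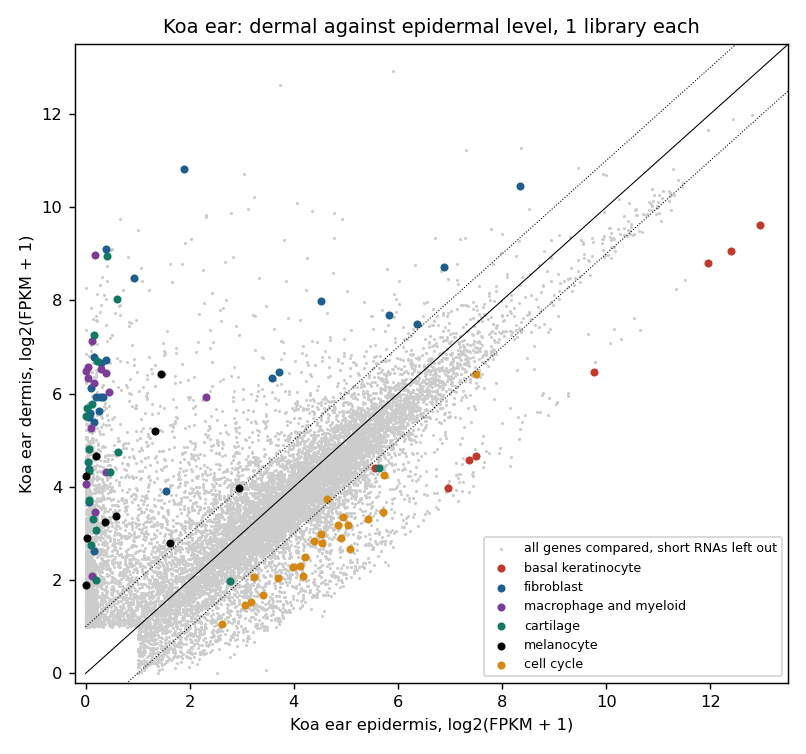
Each point is 1 gene, with its level in Koa ear epidermis on the x axis and in Koa ear dermis on the y axis, both as log2(FPKM + 1), 1 library each; the solid line marks equal levels and the dotted lines a difference of 1. Most fibroblast, cartilage and macrophage genes lie along the left edge, near 0 in epidermis, while the basal keratinocyte genes lie to the lower right and stay well above 0 in dermis.

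The gene furthest towards dermis was Lum, which encodes lumican, a proteoglycan on collagen fibrils, at 856 FPKM in dermis and 0.573 FPKM in epidermis, a difference of 9.09. Vim, the intermediate filament protein of mesenchymal cells, stood at 1803 and 2.70 FPKM (8.93). Dcn, the proteoglycan decorin, stood at 6274 and 12.4 FPKM (8.87). In dermis Dcn was second in abundance, among genes other than short RNAs, to Sparc, a collagen-binding matrix glycoprotein at 7808 FPKM there and 59.0 FPKM in epidermis. The other members of the 15 genes furthest towards dermis were Lyz2, Dpt, Ctsk, Eln, Cytl1, Serpinf1, Serping1, Ccl8, Mfap4, Apod, Fmod and Col6a3, with differences from 8.80 down to 8.02. They include genes of matrix, of secreted protease inhibitors and of myeloid cells, and a cartilage gene, Cytl1.

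Fibroblast genes were higher in dermis without exception among those measured. All 25 of 25 genes of the fibroblast list at 1 FPKM or more were higher there, with a median of 5.38. Pdgfra, the PDGF receptor by which dermal fibroblasts are often sorted, stood at 99.3 FPKM in dermis and 0.231 in epidermis (6.35). Twist1, a mesenchymal transcription factor, stood at 109 and 0.119 FPKM (6.63), and Prrx1, another one, at 105 and 0.320 FPKM (6.32). All 3 were far below 1 FPKM in epidermis.

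The small leucine-rich proteoglycans, which coat collagen fibrils, were higher in dermis in 13 of 13 measured members (median 5.48), among them Bgn at 1194 and 8.38 FPKM (6.99). Of the elastic fibre and matricellular genes 32 of 34 were higher in dermis and 0 in epidermis (median 4.62). Eln, which encodes elastin, stood at 539 and 0.402 FPKM (8.59), and Fbn1, its microfibril scaffold, at 201 and 0.146 FPKM (7.46). Lox, whose product cross-links collagen and elastin, stood at 194 and 0.0996 FPKM (7.47). The member that went against the list was Cyr61, at 48.0 in dermis and 62.1 FPKM in epidermis (-0.37), a difference short of the size rule.

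Collagen chains divided by layer. Of 32 measured chains 26 were higher in dermis and 3 in epidermis (median 3.60). Col6a3, a chain of the microfibrillar collagen VI, stood at 342 in dermis and 0.323 FPKM in epidermis (8.02), and Col5a1, of a fibril-nucleating collagen, at 342 and 1.12 FPKM (7.34). The exceptions were Col17a1, the transmembrane collagen of hemidesmosomes, at 87.4 in dermis and 874 FPKM in epidermis (-3.31), Col4a6 at 2.34 and 18.6 FPKM (-2.55) and Col4a5 at 5.60 and 12.7 FPKM (-1.05), both chains of basement membrane collagen IV. Genes that process collagen were mostly dermal, 13 of 18 against 1 (median 2.88). Pcolce, an enhancer of procollagen cleavage, stood at 411 and 1.099 FPKM (7.62). The epidermal one was Leprel1, a prolyl 3-hydroxylase, at 15.1 in dermis and 48.6 FPKM in epidermis (-1.62).

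Matrix proteases and their inhibitors were higher in dermis in 21 of 25 measured genes and in epidermis in 1 (median 2.87). Mmp2, a gelatinase, stood at 972 and 19.4 FPKM (5.58) and the inhibitor Timp2 at 864 and 29.2 FPKM (4.84). Mmp15, a membrane-bound metalloproteinase, was the epidermal one at 1.92 in dermis and 11.8 FPKM in epidermis (-2.13).

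Cartilage genes were strong in the dermal library. Of 19 measured members 17 were higher in dermis and 1 in epidermis (median 4.29). Cytl1, a cytokine-like protein of cartilage, stood at 496 and 0.330 FPKM (8.55), Ucma, a protein of cartilage matrix, at 151 and 0.1245 FPKM (7.08), and Comp, which binds cartilage collagen, at 103 and 0.165 FPKM (6.48). Sox9, a transcription factor of chondrocytes that hair follicle keratinocytes also use, was the exception, at 20.2 in dermis and 48.8 FPKM in epidermis (-1.23). The same list had a median of 3.93 in wild-type ear and of 0.98 in wild-type back, where the layer difference of Ucma was 0.60.

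The dermal library also held cells other than fibroblasts and chondrocytes. The 15 measured macrophage and myeloid genes were all higher in dermis (median 6.05), with summed levels of 1368 FPKM in dermis and 5.91 FPKM in epidermis. Lyz2, lysozyme of myeloid cells, stood at 505 and 0.132 FPKM (8.80) and C1qa, a complement component made by macrophages, at 139 and 0.0964 FPKM (6.996). Mast cell genes were higher in 9 of 9 (median 2.79), Mcpt4, a mast cell protease, standing at 53.3 and 0.0359 FPKM (5.71). Endothelial genes were higher in 15 of 15 (median 2.11), at lower levels, as for Pecam1 at 10.05 and 0.519 FPKM (2.86). The widest member was Erg at 18.7 and 0.0140 FPKM (4.28). Erg stood at 17.2 FPKM in wild-type ear dermis and 0.922 FPKM in wild-type back dermis, where Pecam1 stood at 9.75 FPKM. Which cells gave the Erg values was not tested. Schwann cell genes were higher in 9 of 11 (median 2.28), with Sox10, a transcription factor of glia and melanocytes, at 6.496 and 0.0225 FPKM (2.87). The others, Ngfr (-0.36) and L1cam (-0.08), leaned to epidermis, short of the size rule.

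Of the complement genes 9 of 11 were higher in dermis and 1 in epidermis (median 5.13). Serping1, the inhibitor of the first complement proteases, stood at 425 and 0.332 FPKM (8.32), and C3, the central component, at 257 and 5.53 FPKM (5.31). Cd59a, which protects cells from complement, was the epidermal one, at 29.1 in dermis and 61.7 FPKM in epidermis (-1.06). Chemokines were dermal in 12 of 20 and epidermal in 2 (median 1.69). Ccl8 stood at 307 FPKM in dermis and was listed at 0 in epidermis (8.26). The epidermal chemokines were Ccl20, a ligand for Ccr6, at 0.283 and 5.82 FPKM (-2.41), and Ccl27a, known from keratinocytes, at 6.85 and 29.6 FPKM (-1.96). Ccl27a overlaps Il11ra1 in the annotation, so its reads may be divided.

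Markers of several cell types that can live among keratinocytes were higher in the dermal library, and where those cells lay in the tissue was not tested. Of the melanocyte genes 10 of 10 were higher in the dermal library (median 2.88). Dct, an enzyme of melanin synthesis, stood at 84.4 in dermis and 1.74 FPKM in epidermis (4.96), and Mlana at 17.7 FPKM in dermis and 0 in epidermis (4.23). T cell genes were higher in 10 of 10 (median 3.03), among them Cd3g, a chain of the T cell receptor complex, at 62.1 and 0.138 FPKM (5.79). Of the Langerhans cell list 7 of 8 were higher in dermis (median 3.98). Its widest members, Cd74, H2-Aa and H2-Ab1, are also in the class II list given next, so the 2 lists are not separate evidence. Cd207, the Langerhans cell lectin langerin, stood at 17.5 and 0.596 FPKM (3.53), whereas Epcam, which keratinocytes of the follicle share with Langerhans cells, stood at 20.3 in dermis and 67.9 FPKM in epidermis (-1.70).

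Among the genes of antigen presentation, those of class II followed the same division and those of class I did not. Class II genes were higher in dermis in 8 of 8 (median 5.11). Cd74, the class II invariant chain, stood at 1677 and 7.28 FPKM (7.66) and H2-Aa at 908 and 3.95 FPKM (7.52). Class I genes, which nearly all cells express, had a median of 0.27, with 2 of 12 higher in dermis and 0 in epidermis. Over all genes the shares were 20.4% and 12.7%.

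**Figure D2:**
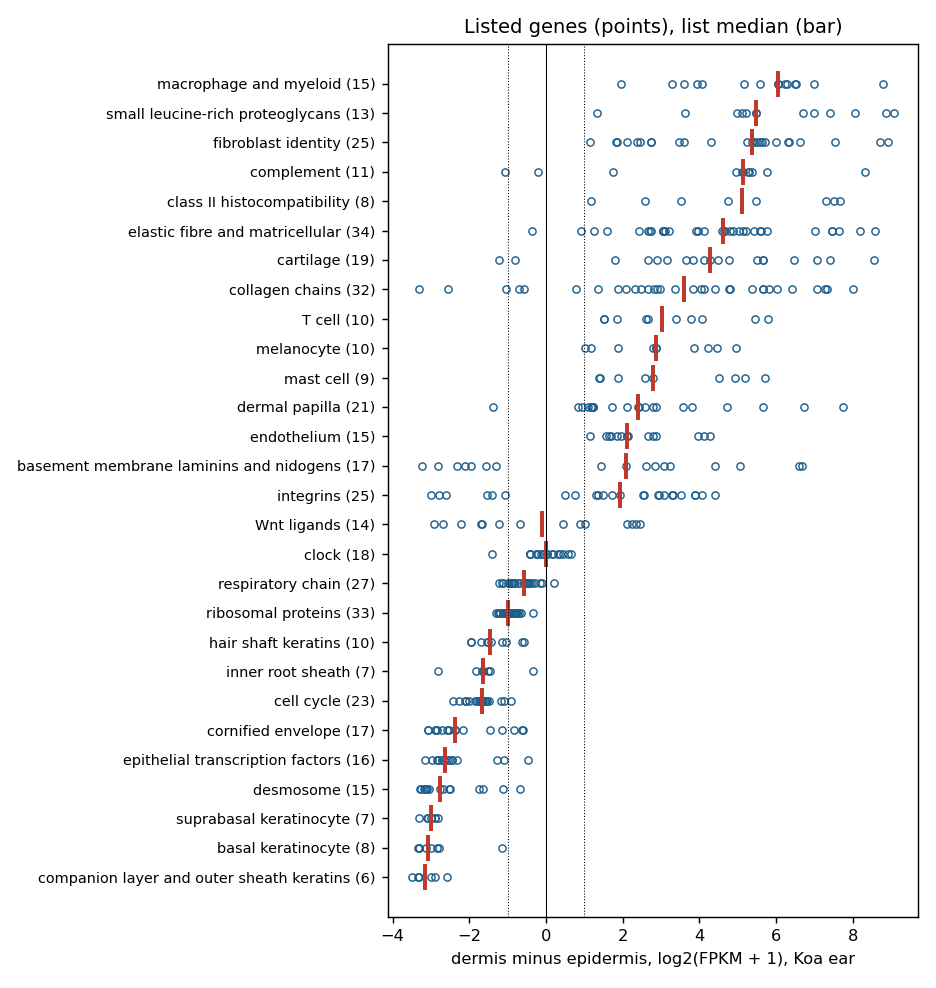
Each open point is 1 gene of a list, placed at its dermal minus epidermal difference on log2(FPKM + 1) in Koa ear; the red bar is the list median, the number after each name is how many members were at 1 FPKM or more, and the dotted lines mark a difference of 1. Macrophage, proteoglycan and fibroblast genes have the highest medians of the lists drawn, from 6.05 to 5.38, and the companion layer, basal and suprabasal keratinocyte lists the lowest, from -3.15 to -2.99.

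On the epidermal side the 15 genes furthest apart were Fcgbp, Clca2, Krt6a, Calm5, Akr1c18, Serpinb3b, Rangrf, Klk10, Krt14, Krt79, Krt5, Krt1, Pof1b, Col17a1 and Krt75, with differences from -3.69 to -3.30. Fcgbp, an IgG Fc-binding protein found in mucus, stood at 20.9 in dermis and 283 FPKM in epidermis, and Clca2, a chloride channel regulator of stratified epithelium, at 24.0 and 289 FPKM (-3.54). Rangrf stood at 0.0467 and 10.02 FPKM, and its span overlaps that of Slc25a35, so its value is uncertain. The most abundant gene of the epidermal library was Krt5, at 7883 FPKM there and 787 FPKM in dermis (-3.32). Krt14, the partner with which Krt5 forms the filaments of basal cells, stood at 5418 and 532 FPKM in the same order (-3.35).

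The basal, suprabasal, desmosome and cornified envelope lists pointed to epidermis. The basal list was higher there in 8 of 8 (median -3.07) and the suprabasal list in 7 of 7 (median -2.99), with Krt10 at 346 FPKM in dermis and 2924 FPKM in epidermis (-3.08). Desmosome genes were higher in epidermis in 14 of 15 (median -2.75), as for Dsp, which links desmosomes to keratin, at 63.95 and 617.8 FPKM (-3.25). Genes of the cornified envelope, the shell of the outermost cells, were higher in 14 of 17 (median -2.37). Sprr1a, a building block of that shell, stood at 9.74 and 90.3 FPKM (-3.09). Other lists of keratinocyte function were more mixed. Barrier lipid enzymes were epidermal in 8 of 15 and dermal in 1 (median -1.21). Aquaporins and keratinocyte channels were epidermal in 4 of 8 and dermal in 3 (median -0.82).

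Of the epithelial transcription factors 15 of 16 were higher in epidermis and 0 in dermis (median -2.62). Trp63, the p63 gene needed for stratified epithelium, stood at 24.4 in dermis and 180 FPKM in epidermis (-2.84). Grhl2, which acts on epithelial junction genes, stood at 2.89 and 29.4 FPKM (-2.96). The splicing factor Esrp1, which sets epithelial isoforms, stood at 14.3 and 138 FPKM (-3.18). Epidermal proteases and inhibitors were epidermal in 15 of 18 (median -2.38), among them Spink5, an inhibitor of the kallikreins that shed surface cells, at 3.12 and 37.1 FPKM (-3.21).

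Junction genes exchanged members between the layers. Of 20 measured adherens and tight junction genes 14 were higher in epidermis and 3 in dermis (median -2.20). Cdh1, E-cadherin of epithelia, stood at 29.7 in dermis and 194 FPKM in epidermis (-2.66). Cdh11, a cadherin of mesenchymal cells, stood at 57.6 and 3.71 FPKM (3.64), Cdh2, N-cadherin, at 3.67 and 0.229 FPKM (1.93), and Cldn5, the claudin of endothelium, at 3.83 and 0.0931 FPKM (2.14). The gap junction genes were epidermal in 8 of 10. The dermal one was Gjc1, a connexin of vessel walls, at 10.5 and 0.715 FPKM (2.75).

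The level of keratinocyte genes in the dermal library was a similar fraction of the epidermal level in several lists, though not in all. Over the 8 basal markers the dermal level was 11.6% of the epidermal level in the median, with a range from 9.81% for Krt14 to 43.9% for Dst, a linker of hemidesmosomes. The median was 11.8% for the 7 suprabasal genes (range 9.91% to 13.9%), 11.6% for 14 desmosome genes and 10.9% for 12 cornified envelope genes. It was 13.9% for 9 hemidesmosome and laminin-332 genes and 15.3% for 15 adherens and tight junction genes. For 11 barrier lipid enzymes it was 41.0%, with a range from 11.1% to 160%. The gene with the lowest fraction among those at 20 FPKM or more in epidermis was Krt75, a keratin of the follicle's companion layer, at 6.10%. In wild-type ear the basal median was 7.995% and in wild-type back 40.7%. This fraction may bear on any epidermal difference given here, and its part in each of them was not tested.

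Other epidermis-higher genes stood at larger fractions in dermis. Hair shaft keratins, made in the growing follicle, were at 23.1% in the median of 5 genes and inner root sheath genes at 29.8% of 7. The hair shaft list was higher in epidermis in 8 of 10 (median -1.47), as for Krt35 at 6.52 in dermis and 28.2 FPKM in epidermis (-1.96), and the inner root sheath list in 6 of 7 (median -1.65), as for Krt71 at 8.25 and 31.9 FPKM (-1.83). No such fraction is given for wild-type ear, where several of these genes were below 1 FPKM in both layers, Krt31 standing at 0 in dermis and 0.917 FPKM in epidermis and Krt71 at 0.0279 and 0.930 FPKM. Cell cycle genes were at 25.9% and sebaceous gland genes, which serve lipid synthesis, at 36.0%.

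**Figure D3:**
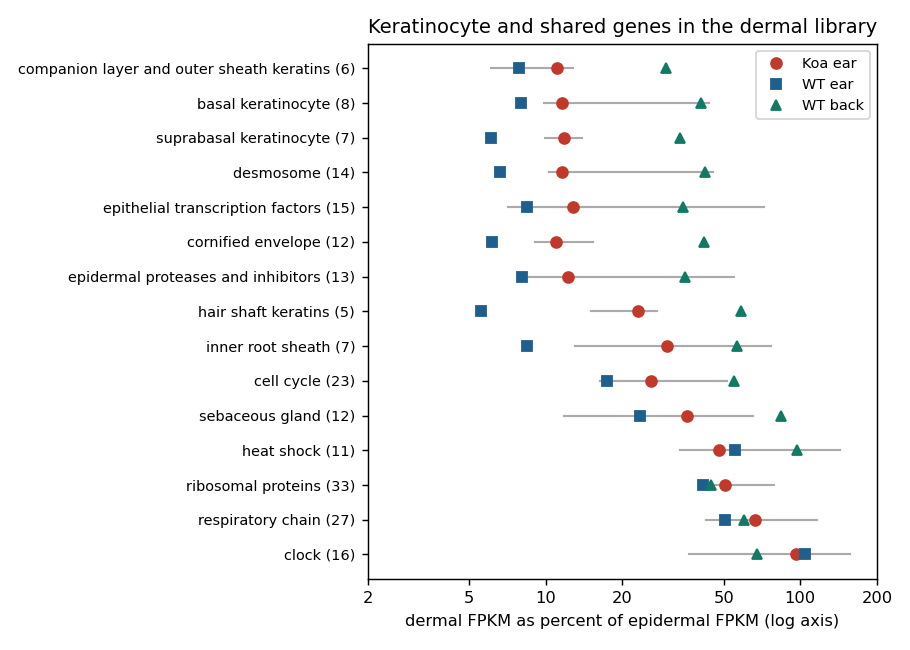
Dermal FPKM as a percent of epidermal FPKM on a log axis, for lists of genes at 5 FPKM or more in Koa ear epidermis (number of genes in brackets): circles, squares and triangles are list medians in Koa ear, WT ear and WT back, and the grey line spans the lowest to the highest gene in Koa ear. The first 7 lists lie between 10.9% and 12.8% in Koa ear, below them the hair lists lie at 23.1% and 29.8%, and WT back is the highest of the 3 for all of these. The WT ear medians of the hair lists rest in part on genes below 1 FPKM in both layers.

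A short motif was more frequent in the promoters of epidermis-higher genes. CACCTG, read on both strands, is the core bound by the Snail and Zeb repressors of epithelial genes. It was found in the 250 bases before the start site in 22.3% of 1155 epidermis-higher genes, in 14.8% of 1911 dermis-higher genes and in 15.1% of all 9718 compared genes with a RefSeq promoter (17.1% of all 27025 promoters in that table). In genes higher in epidermis by 2.5 or more the share was 31.8% of 154, and in genes higher in dermis by 4 or more it was 8.17% of 257. Promoters rich and poor in CpG were alike in this, with 21.6% against 14.7% of all where 10 or more CpG were present, and 23.4% against 16.3% where fewer were. It was 1 of 16 motifs searched, and no test was made. TGANTCA, the AP-1 site, which does not overlap it, was in 7.19% of epidermis-higher, 6.38% of dermis-higher and 4.69% of all compared promoters, and TATAAA in 9.35%, 9.26% and 6.85%. TTCCGG, an ETS-type site, went another way, in 15.1%, 9.84% and 21.2%. At the limits of 2.5 and 4, TGANTCA was in 12.3% of the 154 epidermal and 5.84% of the 257 dermal promoters. TATAAA was in 14.3% and 13.2% of them, and TTCCGG in 6.49% and 7%. CACCTG was thus not the only motif with a larger share among the 154.

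To show where the motif lies, upstream sequences of 5 epidermis-higher keratin, junction and epithelial factor genes that hold it are printed first. They have the widest differences among the genes that could be chosen. Genes without a RefSeq promoter, and genes of a chromosome that was left out of the printing, could not be chosen. Sequences of 2 dermis-higher genes follow, the furthest apart with a RefSeq promoter in the fibroblast, leucine-rich proteoglycan and mesenchymal transition lists. Lum and Dcn have no promoter there and could not be chosen. Of the 28 epidermis-higher genes in those epithelial lists with a RefSeq promoter 11 (39.3%) held the motif, and of the 28 dermis-higher genes in the 3 dermal lists with a promoter 3 (10.7%). Each run is the 250 bases before the start site, 5′ to 3′ on the gene's strand, from RefSeq on GRCm38.p6, with CACCTG or its reverse complement CAGGTG in capitals. The motif begins at -27 in Krt79, at -128 in Krt5, at -52 in Krt10, at -40 in Krt77, at -19 in Grhl3 and at -224 in Dpt, counted back from the start site, and Vim has none in this window. A match is a run of letters and no evidence of binding.
Krt79 (chr15:101940325-101940574, minus strand): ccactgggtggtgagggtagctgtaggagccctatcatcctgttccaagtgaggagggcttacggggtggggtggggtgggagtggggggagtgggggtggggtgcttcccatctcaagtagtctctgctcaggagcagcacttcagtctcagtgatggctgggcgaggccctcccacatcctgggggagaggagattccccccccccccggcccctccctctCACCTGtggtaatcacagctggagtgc
Krt5 (chr15:101712906-101713155, minus strand): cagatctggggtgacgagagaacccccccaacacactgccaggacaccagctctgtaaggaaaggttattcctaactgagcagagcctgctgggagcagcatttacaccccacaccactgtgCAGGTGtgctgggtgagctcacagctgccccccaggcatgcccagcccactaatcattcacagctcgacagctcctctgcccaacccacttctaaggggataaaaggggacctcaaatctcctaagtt
Krt10 (chr11:99389365-99389614, minus strand): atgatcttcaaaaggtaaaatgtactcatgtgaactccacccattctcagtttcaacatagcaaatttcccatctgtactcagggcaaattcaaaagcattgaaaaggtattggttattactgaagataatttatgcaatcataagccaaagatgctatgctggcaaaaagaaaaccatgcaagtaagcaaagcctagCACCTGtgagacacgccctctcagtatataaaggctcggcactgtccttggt
Krt77 (chr15:101869706-101869955, minus strand): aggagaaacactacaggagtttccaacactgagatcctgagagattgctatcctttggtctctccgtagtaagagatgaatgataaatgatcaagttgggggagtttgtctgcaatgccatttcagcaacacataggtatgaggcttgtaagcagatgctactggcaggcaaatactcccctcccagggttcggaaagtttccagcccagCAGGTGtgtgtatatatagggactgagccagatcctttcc
Grhl3 (chr4:135573633-135573882, minus strand): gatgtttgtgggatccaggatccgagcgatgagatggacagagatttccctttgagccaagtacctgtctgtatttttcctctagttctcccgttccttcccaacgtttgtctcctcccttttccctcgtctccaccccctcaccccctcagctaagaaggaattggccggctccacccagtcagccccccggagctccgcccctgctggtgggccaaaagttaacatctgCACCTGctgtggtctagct
Vim (chr2:13574061-13574310, plus strand): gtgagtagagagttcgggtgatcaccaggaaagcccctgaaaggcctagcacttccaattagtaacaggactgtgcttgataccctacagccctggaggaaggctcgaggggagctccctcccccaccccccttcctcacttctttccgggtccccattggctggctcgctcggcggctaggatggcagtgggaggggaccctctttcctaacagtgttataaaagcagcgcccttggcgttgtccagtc
Dpt (chr1:164796413-164796662, plus strand): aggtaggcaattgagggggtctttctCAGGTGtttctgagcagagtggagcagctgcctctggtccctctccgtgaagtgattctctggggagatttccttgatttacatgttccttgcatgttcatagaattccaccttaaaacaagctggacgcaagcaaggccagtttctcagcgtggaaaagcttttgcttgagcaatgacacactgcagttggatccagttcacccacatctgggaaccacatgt

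Where the layers meet, laminins and integrins divided by chain. Of 17 measured laminin, nidogen and Frem genes 10 were higher in dermis and 7 in epidermis (median 2.10). Lamb3, a chain of the laminin that anchors hemidesmosomes, stood at 13.2 in dermis and 133 FPKM in epidermis (-3.24). Lama2, a laminin chain of mesenchymal basement membranes, stood at 114 and 0.116 FPKM (6.69), and Nid1, the linker nidogen, at 191 and 0.961 FPKM (6.61). Frem1 and Frem2, which function together at the junction of epidermis and dermis, were on opposite sides, Frem1 at 8.59 and 0.0248 FPKM (3.23) and Frem2 at 1.42 and 11.1 FPKM (-2.33). Integrins were dermal in 17 of 25 and epidermal in 6. The laminin receptor Itga6 stood at 22.9 and 165 FPKM (-2.79), the collagen receptor chain Itga11 at 9.76 and 0.0894 FPKM (3.30) and the leukocyte chain Itgb2 at 20.8 and 0.0212 FPKM (4.41).

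Wnt ligands were split evenly enough that their median was near that of all genes. Of 14 measured ligands 5 were higher in dermis and 6 in epidermis (median -0.11, as over all genes). Wnt4 stood at 7.25 in dermis and 61.4 FPKM in epidermis (-2.92), Wnt7b at 2.75 and 23.3 FPKM (-2.69), and Wnt3 at 1.68 and 11.5 FPKM (-2.22). On the dermal side were Wnt5a, at 17.9 and 2.46 FPKM (2.45), and Wnt2, at 4.13 FPKM in dermis and 0 in epidermis (2.36). Wnt3 overlaps Wnt9b and Wnt7b overlaps AU022754 in the annotation, which leaves their values uncertain.

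R-spondins, secreted proteins that raise the response to Wnt, were dermal in 4 of 4 (median 2.31), led by Rspo1 at 43.4 and 0.242 FPKM (5.16). Secreted Wnt inhibitors were dermal in 9 of 12 and epidermal in 1 (median 2.11). Wif1, which binds Wnt proteins, stood at 244 and 3.86 FPKM (5.66), and Dkk2, which binds Wnt co-receptors, at 108 and 0.516 FPKM (6.17). The epidermal inhibitor was Sostdc1, which also binds BMPs, at 17.4 and 141 FPKM (-2.95). Receptors divided 6 to 6 among 19, with Fzd9 at 18.9 and 0.222 FPKM (4.03) and Fzd6 at 7.15 and 37.3 FPKM (-2.23). Of the Wnt target genes 6 of 12 were dermal and 3 epidermal, among them Nkd1, a feedback inhibitor, at 17.7 and 1.34 FPKM (2.999) and Rnf43, which removes Wnt receptors, at 2.18 and 11.5 FPKM (-1.98).

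FGF ligands were dermal in 5 of 10 and epidermal in 1 (median 1.01). The receptor list divided 3 to 3 (median 0.23), but 1 of its epidermal members is not a receptor. That member was Fgfbp1, an FGF-binding protein, at 10.6 in dermis and 108 FPKM in epidermis (-3.24). Fgf7, the keratinocyte growth factor, stood at 27.0 in dermis and 0.0686 FPKM in epidermis (4.71), and Fgf10, which shares its receptor, at 7.12 and 0.174 FPKM (2.79). Fgfr2, which gives rise to that receptor in epithelia, stood at 44.5 and 123 FPKM (-1.45), and Fgfr3 at 24.2 and 85.9 FPKM (-1.79). Fgfr1 stood at 93.9 and 24.5 FPKM (1.90), Fgfr4 at 11.8 and 0.0480 FPKM (3.61) and Fgfrl1, a receptor-like gene, at 26.3 and 1.66 FPKM (3.36), so the receptor genes lay in both layers. The epidermal ligand was Fgf1 at 1.33 and 3.82 FPKM (-1.05), which overlaps Arhgap26.

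PDGF ligands divided 2 to 2 between the layers (median 0.13). Pdgfa stood at 17.6 in dermis and 36.9 FPKM in epidermis (-1.02) and Pdgfb at 2.72 and 7.76 FPKM (-1.24), while Pdgfc, at 14.9 and 5.55 FPKM (1.28), and Pdgfd, at 2.19 and 0.160 FPKM (1.46), were dermal. All 3 genes of the receptor list were dermal (median 6.35), with Pdgfrb at 68.7 and 0.0813 FPKM (6.01). Among the Notch genes, which pattern neighbouring cells, ligands and receptors were epidermal in 3 of 6 and dermal in 1 (median -1.62). Jag2 stood at 13.9 and 121 FPKM (-3.03), Dll1 at 4.08 and 24.4 FPKM (-2.32) and Notch1 at 8.12 and 43.4 FPKM (-2.28). Notch3, a receptor of vessel walls, was dermal at 12.3 and 5.59 FPKM (1.02). Notch targets were dermal in 3 of 5 and epidermal in 1 (median 1.73). The dermal ones, Heyl (1.99), Hey2 (1.97) and Hey1 (1.73), were all under 5 FPKM. The epidermal one was Nrarp (-1.94). Both Notch medians depend on the filter, as given below.

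BMP and TGF-beta ligands were dermal in 11 of 17 and epidermal in 0 (median 1.40), with Bmp5 at 72.2 and 0.0607 FPKM (6.11) and Bmp4 at 47.7 and 7.11 FPKM (2.58). Of the IGF system 8 of 11 genes were dermal and 0 epidermal (median 2.11), with the ligand Igf1 at 89.1 and 0.319 FPKM (6.09) and the binding protein Igfbp5 at 889.9 and 3.995 FPKM (7.48). EGF receptor ligands were low in both layers: 6 of 11 reached 1 FPKM, 0 were dermal and 2 epidermal, and the highest of the 6 rule-named values was 8.04 FPKM, of Nrg4 in epidermis. Other signals included Edn3, a ligand for melanocytes, at 11.7 FPKM in dermis and 0 in epidermis (3.67), with its receptor Ednrb at 8.55 and 0.300 FPKM (2.88). Csf1, a growth factor of macrophages, stood at 48.2 and 5.15 FPKM (2.998), and its receptor Csf1r at 85.7 and 0.307 FPKM (6.05). Il33, an alarm cytokine, was epidermal at 12.3 and 68.6 FPKM (-2.39), and Il7, a lymphocyte growth factor, at 2.96 and 11.7 FPKM (-1.68), while its receptor Il7r was dermal at 9.69 and 0.0563 FPKM (3.34). Bmp4, Nrg4 and Pdgfd overlap other genes in the annotation.

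**Figure D4:**
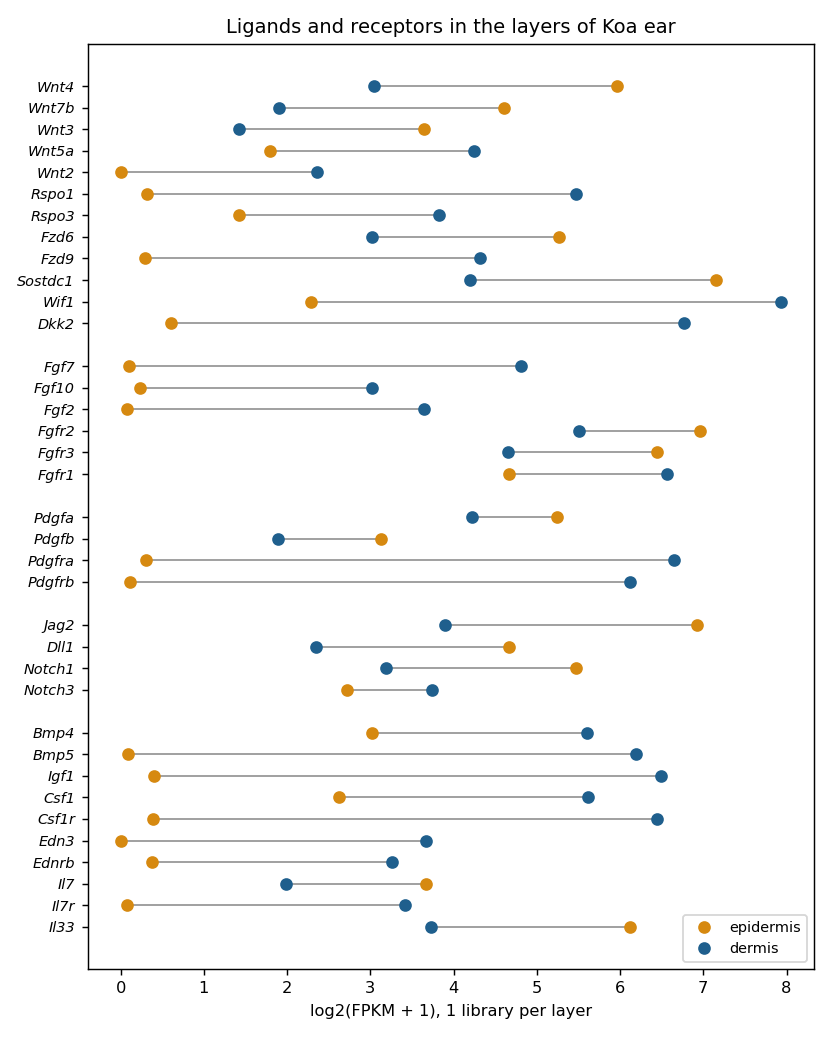
Level of each ligand, receptor or inhibitor as log2(FPKM + 1), with the epidermal library in orange and the dermal library in blue, 1 library per layer; the groups are Wnt, FGF, PDGF, Notch and other signals. Fgf7 and Fgf10 are dermal where Fgfr2 and Fgfr3 are epidermal, and Pdgfa and Pdgfb are epidermal where Pdgfra and Pdgfrb are dermal.

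The dermal papilla list, named for the condensed fibroblasts that each follicle encloses, was higher in dermis in 18 of 21 and in epidermis in 1 (median 2.40). Enpp2, autotaxin, stood at 275 and 0.277 FPKM (7.76) and Crabp1, a retinoic acid binding protein, at 112 and 0.0526 FPKM (6.74). Crabp2, its relative, was the epidermal exception at 9.17 in dermis and 25.6 FPKM in epidermis (-1.39). Other retinoid genes were also unequal: the retinoic acid degrading enzyme Cyp26b1 stood at 102 and 4.41 FPKM (4.25), and Stra6, a retinol transporter, at 1.18 and 11.9 FPKM (-2.56), although Stra6 overlaps Ccdc33.

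Hoxc genes are transcription factors of body position, and the study also measured chromatin contacts of their cluster. Those at 1 FPKM or more were on the dermal side except Hoxc13. Hoxc8 stood at 10.2 FPKM in dermis and 1.97 FPKM in epidermis (1.92) and was the dermal member past the size rule. Hoxc4 had 1.55 FPKM in dermis and 0.397 FPKM in epidermis (0.87), Hoxc5 had 1.56 and 0.570 FPKM (0.70), Hoxc6 had 1.36 and 0.590 FPKM (0.57) and Hoxc9 had 1.09 and 0.279 FPKM (0.71), all short of that rule. Hoxc13, which controls hair keratins, stood at 0.983 and 10.3 FPKM (-2.51). In wild-type ear the layer difference was 0.08 for Hoxc8, at 0.241 and 0.171 FPKM, and -2.48 for Hoxc13. Hoxc4 (-0.44) and Hoxc5 (-0.71) were on the epidermal side there, Hoxc6 (0.03) and Hoxc9 (0.15) near 0, and all of these were short of the size rule. The remaining 3 genes of the cluster's 9 did not reach 1 FPKM in either layer.

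Other positional factors were divided, 14 of 29 dermal and 7 epidermal (median 0.72). Tbx15, a skin patterning gene, stood at 48.6 in dermis and 0.193 FPKM in epidermis (5.38), and Sim2 at 28.1 and 0.0163 FPKM (4.84). Tlx1 stood at 3.80 and 39.8 FPKM (-3.09), and its difference was -3.52 in wild-type ear and -0.10 in wild-type back. Of the 8 measured factors of the mesenchymal transition list 6 were dermal and 1 epidermal (median 3.97). Zeb2 stood at 39.2 and 0.0253 FPKM (5.29), Zeb1 at 15.7 and 0.0338 FPKM (4.02), Snai1 at 16.8 and 0.163 FPKM (3.93) and Twist2 at 44.0 and 0.0509 FPKM (5.42). Snai2, or Slug, which basal keratinocytes also express, was the epidermal one at 14.01 and 30.8 FPKM (-1.08). Zeb1 overlaps Gm10125 in the annotation.

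Lists of genes used by most cell types had medians between -1.66 and -0.01. Cell cycle genes were higher in epidermis in 22 of 23 (median -1.66), as for Mki67, a marker of dividing cells, at 8.996 in dermis and 41.8 FPKM in epidermis (-2.10), and Top2a, which untangles DNA, at 10.0004 and 51.5 FPKM (-2.25). Ribosomal protein genes were higher in epidermis in 13 of 33 (beside 12.7% of all genes) and in dermis in 0, with a median of -0.98 and a narrow range from -1.31 to -0.35. With a median so near the size rule, the ribosomal count depends on how the libraries are scaled, and it is not given for other scalings. Heat shock genes were higher in epidermis in 6 of 11 and in dermis in 0 (median -1.05, or -0.79 with equal totals), as for Hspa1b, an inducible chaperone, at 25.6 and 75.7 FPKM (-1.53). Respiratory chain genes had a median of -0.58, with 3 of 27 epidermal and 0 dermal, beside 12.7% and 20.4% of all genes. The clock list, with 18 measured genes, had a median of -0.01. Of its members Hlf, a clock output factor, was past the size rule at 14.9 in dermis and 40.7 FPKM in epidermis (-1.40). Immediate early genes, which also respond to tissue dissociation, were epidermal in 4 of 17 and dermal in 1 (median -0.63), with Egr2 at 5.92 and 34.7 FPKM (-2.37).

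Set beside wild-type skin, which shares no library with this pair, the layer contrast of Koa ear was close to that of wild-type ear. In wild-type ear 2942 of 13840 genes (21.3%) were higher in dermis and 1989 (14.4%) in epidermis, and in wild-type back 2239 of 13896 (16.1%) and 1149 (8.27%). Short RNAs left out, 2536 genes were dermal in both ears, 90.5% of the Koa and 88.0% of the wild-type list, and 1457 were epidermal in both, 86.7% and 76.0%. With the back, 1848 dermal genes were shared (66.0% of the Koa and 84.0% of the back list) and 721 epidermal ones (42.9% and 66.7%). Of 13399 genes compared in both ears, 11798 had a layer difference within 0.5 of each other, 132 were at least 1 above wild-type ear and 169 at least 1 below.

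The 10 genes whose layer difference in Koa ear lay furthest above that in wild-type ear fell into 2 kinds. Slc26a7, an anion exchanger, stood at 30.2 FPKM in Koa dermis and 0.0651 in Koa epidermis, against 1.71 and 0.0571 FPKM in wild-type ear. Retnla, a secreted resistin-like protein, stood at 26.3 FPKM in Koa dermis and 1.53 FPKM in wild-type dermis, and was listed at 0 in both epidermal libraries. Spon2, a matrix protein, stood at 21.0 and 1.36 FPKM in Koa and at 6.36 and 4.72 FPKM in wild-type ear. Gfap, an intermediate filament of glia, Npy, a neuropeptide, and Grem1, a BMP antagonist, belong with these, at 11.1, 8.82 and 8.50 FPKM in Koa dermis and 0.720, 1.61 and 0.8996 FPKM in wild-type dermis. The others were keratinocyte or epidermal genes, Krt2, Mt4, Dapl1 and Fam25c, which were higher in epidermis in both ears but less far apart in Koa. Krt2, a late suprabasal keratin, stood at 302 and 2591 FPKM in Koa and at 86.3 and 3174 FPKM in wild-type ear. The basal keratinocyte fraction was 11.6% in Koa ear and 7.995% in wild-type ear, and its part in the values of these genes was not tested.

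Furthest below wild-type ear lay Ifi202b, Slc7a8, S100a9, H2-Ea-ps, H2-Eb1, Tpsab1, Gjb2, Krt75, Zfp457 and Ccl3. The dermal level was lower in Koa for 8 of them, all but Gjb2 and Krt75. Among these H2-Eb1, a class II chain, stood at 12.5 against 171 FPKM, H2-Ea-ps at 24.7 against 420 FPKM, the mast cell tryptase Tpsab1 at 5.01 against 42.0 FPKM and Ccl3, a chemokine, at 0.576 against 6.42 FPKM. Krt75 stood at 22.2 against 0.743 FPKM in epidermis, and Gjb2, a connexin of keratinocytes, at 45.0 against 1.96 FPKM. Ifi202b, an interferon-inducible gene, differed in both layers, at 12.5 in dermis and 16.5 FPKM in epidermis in Koa and at 93.7 and 8.80 FPKM in wild-type ear. Slc7a8, S100a9 and Zfp457 were likewise higher in Koa epidermis, at 12.1, 12.7 and 9.89 FPKM. In wild-type ear epidermis they stood at 0.446, 1.22 and 3.13 FPKM. With 1 library in each of the 4 groups, none of these departures can be told from differences between single samples.

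**Figure D5:**
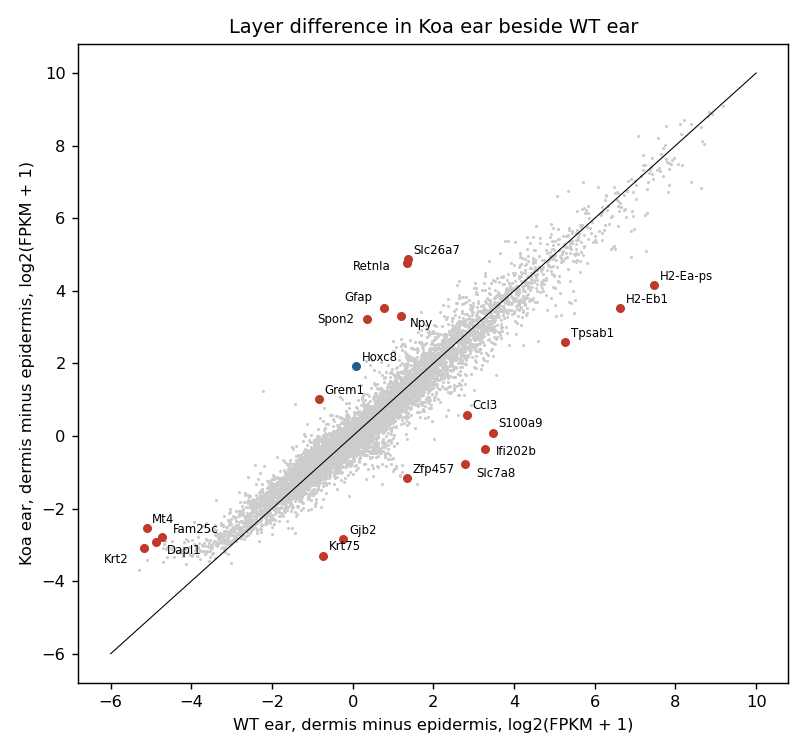
Each grey point is 1 gene compared in both ears, short RNAs left out, with its dermal minus epidermal difference on log2(FPKM + 1) in WT ear on the x axis and in Koa ear on the y axis; the line marks equal differences. The 20 genes furthest from WT ear by the naming rule are in red and Hoxc8 is in blue, at 0.08 in WT ear and 1.92 in Koa ear.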

How the data were processed

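RNA of flow-sorted skin cells was sequenced in 7 libraries, 1 per group; the 2 Koa ear libraries were compared and 4 wild-type ear and back libraries set beside them. The values are FPKM as deposited by the authors. TopHat2 2.0.13 and Cufflinks 2.2.1 are named in the submitters' processing notes with the builds GRCm38 and mm9, without saying which build was used for which step, and the gene annotation is not given in the sources used here. Columns were matched to samples by title.

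Differences were taken on log2(FPKM + 1), which understates those of low genes, with Python 3.11.15 and pandas 2.3.3. Genes at 1 FPKM in either library were kept, and a difference of 1 in size was counted as higher. With 1 library per group no p-value was computed. Genes listed at 0 in 1 library of a layer and at 100 FPKM or more in another were left out, and Col1a2, at 0 in all dermal libraries, was added to them after its values were seen. The counting was tested on simulated data. Some genes that the naming rule gives are not reported here. Genes were named by rule: the 15 widest per direction at 5 FPKM or more, up to 6 members per list and 3 against it, the Hoxc genes, and the 10 widest departures from wild-type ear per direction. The members and lists were chosen with earlier results of these data known. Symbols were matched to RefSeq (20004 of 22552) for overlaps, and 70 of 523 named genes overlap another symbol. Depth was estimated from 1-transcript genes over 600 bases in a GENCODE annotation of GRCm38; a value counted as whole within 0.1 fragment. Dst and Grhl3, outside the naming rule, were named after their values were seen. Promoter windows and the motif limits of 2.5 and 4 were chosen after the values were seen.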

Additional observations from a re-analysis of the deposited data

Results flagged for a closer look

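Of the genes named by rule, 4 were past the size rule in opposite directions in Koa ear and in a wild-type pair, and with 1 library per group the difference between pairs was not tested. Fgf18, a growth factor, was higher in dermis in Koa ear (1.35) and in epidermis in wild-type back (-1.23). Hoxa2, a patterning gene of the outer ear, was higher in dermis in Koa ear (1.83) and in epidermis in wild-type back (-1.25). Nr4a2, an early response gene, was higher in dermis in Koa ear (1.29) and in epidermis in wild-type back (-1.13). In wild-type ear these genes had differences of 1.40, 1.86 and 1.14, on the same side as Koa ear. Zfp457, a zinc finger gene, was higher in epidermis in Koa ear (-1.17), at 3.84 FPKM in dermis and 9.89 FPKM in epidermis, and in dermis in wild-type ear (1.35), at 9.52 and 3.13 FPKM.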

How the results depend on the processing

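With a pseudocount of 5 the counts fell to 1603 genes higher in dermis and 1061 higher in epidermis, and with a size rule of 2 to 1503 and 526, as either makes the rule stricter. A pseudocount of 0.1, a filter of 5 FPKM, both scalings and leaving out short RNAs kept both counts within 1.5 times. Dropping the filter could not change the counts, because genes under 1 FPKM in both libraries cannot differ by 1 on log2(FPKM + 1). Scaling to equal totals moved the median of all genes from -0.11 to 0.12 and gave 3195 dermal and 1303 epidermal genes, so that 71.0% of calls were dermal in place of 61.5%; setting the median ratio to 0 gave 3195 and 1305. Of 83 lists, 41 had a median of 1 or more, 19 of -1 or less. Their medians crossed 1 in size in 5 lists under each scaling, in 7 with a pseudocount of 0.1, 18 with 5, 11 without a filter, 7 of 81 with the stricter filter and 5 with the keratinocyte fraction subtracted from dermis. The median of the Notch ligands and receptors turned from -1.62 to 0.035 without a filter, and that of the Notch targets from 1.73 to -1.36 with a filter of 5 FPKM, where fewer members remain. With the subtraction, for the counts chosen after the data were seen, the calls were 2756 and 2767, and 49.9% were dermal. No paired analysis was possible because every group has 1 library. FPKM of short RNAs is unstable, and depth limits values under about 0.1 FPKM.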
